A study of Sus scrofa with 24 samples.

Results

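The 10 genes described here mark oligodendrocyte progenitors or regulate the path from progenitor to myelinating oligodendrocyte: PDGFRA, CSPG4, OLIG1, OLIG2, SOX10, NKX2-2, GPR17, BCAS1, ENPP6 and MYRF. They were chosen by symbol, and each matched 1 of the 38882 Entrez genes listed for the hippocampus of 24 piglets (Sus scrofa) killed at 14 days of age. AGA piglets had a birth weight appropriate for gestational age and SGA piglets were small for gestational age. CON piglets received a formula whose fat was triglyceride, and HF piglets one whose fat was partly hydrolyzed to free fatty acids and monoacylglycerol, at the same total fat content. The HF formula also held added soy lecithin and cholesterol and a different blend of oils. All piglets were PIC Camborough x PIC 359 crosses fed artificially from soon after birth, with 6 in each of the 4 groups AGA CON, SGA CON, AGA HF and SGA HF. The labels pair each SGA piglet with an AGA littermate of the same sex and diet, which gave 12 litters, 6 on each diet and 6 in each of 2 cohorts. Size therefore differed within litters and diet between them. Each library came from a separate animal. The question was whether genes of progenitors and of cells on their way to myelination differed with birth size as the genes of mature oligodendrocytes did.

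Oligodendrocyte progenitors respond to platelet-derived growth factor through the receptor encoded by PDGFRA and carry the NG2 proteoglycan encoded by CSPG4. They form and mature under regulators that include OLIG1, OLIG2, SOX10 and NKX2-2. As they leave the progenitor state they pass through a premyelinating stage marked by GPR17, BCAS1 and ENPP6, and MYRF then switches on the myelin genes. In the hippocampus of a newborn this transition is under way, so progenitors, newly formed and myelinating cells occur side by side.

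All 10 genes were detected in every library and passed the filter on low counts. Total counts ran from 6017336 to 9284355 per library, with a median of 7346072, and the lowest count of any of the 10 genes was 21, for SOX10. In bulk tissue, fewer cells of a type and less RNA per cell cannot be told apart. No library stood apart from the others: the median correlation of a library with the rest ran from 0.965 to 0.978 (Pearson, log2 CPM over the tested genes).

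Compared per length, as reads per kilobase of exon scaled by library size (RPKM), BCAS1, OLIG1 and GPR17 were the most abundant. This order takes the deposited gene models as complete and coverage along transcripts as even, and neither was checked. BCAS1, an early myelinating-cell marker, had a mean of 508 ± 115 RPKM (SD, 24 libraries), and 99.1% of the tested genes lay below it. OLIG1 followed at 279 ± 41.8 RPKM and GPR17, a receptor of committed premyelinating cells, at 111 ± 20.5 RPKM. MYRF at 53.2 ± 14.5 and OLIG2 at 47.3 ± 8.88 RPKM differed by less than the SD of either gene. NKX2-2 had 36.0 ± 5.28 RPKM and PDGFRA 25.5 ± 3.08 RPKM, and their ranges overlapped. ENPP6, a choline phosphodiesterase of newly forming oligodendrocytes, had 8.26 ± 1.60 RPKM and SOX10 had 4.29 ± 1.52 RPKM. CSPG4 was lowest at 1.19 ± 0.251 RPKM, with 21.7% of the tested genes below it.

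**Figure D1:**
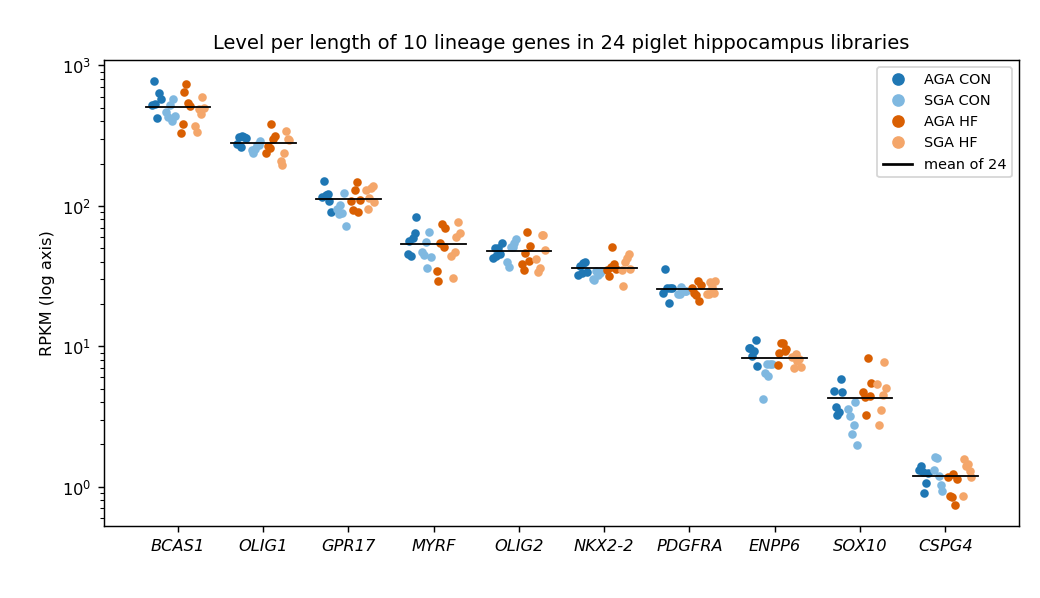
Level per length of each of the 10 genes, in RPKM on a log axis, with 1 point per library coloured by group and a line at the mean of 24 libraries. BCAS1 (mean 508 RPKM) and OLIG1 (279 RPKM) are at the top and CSPG4 (1.19 RPKM) at the bottom, and the 4 groups overlap for every gene.

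The places of the genes are those of the deposited annotation of Sscrofa10.2, each from the first to the last exon listed there. These models may not cover the whole gene: that of PDGFRA holds 4 exons of 3532 bases. OLIG1 (Entrez 100620095) lies at chr13:206712479-206714811 on the minus strand and is counted on 1 exon of 2333 bases. OLIG2 (Entrez 100152482) lies on the plus strand of the same chromosome at chr13:206661824-206663897, so the 2 genes are neighbours. PDGFRA (Entrez 100627123) is at chr8:43067784-43081654, CSPG4 (733676) at chr7:62640958-62678668, SOX10 (414903) at chr5:7289992-7299054 and NKX2-2 (100626520) at chr17:33227964-33230838. GPR17 (102162410) is at chr15:66443203-66448850, BCAS1 (100126238) at chr17:61650565-61809255, ENPP6 (100152050) at chr15:51972092-52015300 and MYRF (100520659) at chr2:9314215-9345474.

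Levels of marker lists show which brain cell types the libraries held, but these lists do not tell the hippocampus from other brain regions. Mature oligodendrocyte genes were abundant: the summed library-scaled counts (CPM, scaled by TMM, the trimmed mean of M-values) of 20 listed symbols ran from 13910 to 29739, with MBP, a myelin structural protein, taking 29.5% of the sum. Astrocyte genes summed to a median of 10802 CPM, led by GFAP, and neuronal genes to 10944 CPM, led by CAMK2A, the kinase of excitatory synapses. Lists for cells that could share some of the 10 genes were much lower. Pericyte and smooth muscle genes, cells that also carry CSPG4, had a median sum of 392 CPM, and fibroblast and meningeal genes, cells that also carry PDGFRA, one of 322 CPM. MCAM made up 45.5% of the former sum. PTGDS, which oligodendrocytes express too, made up 52.4% of the latter.

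Birth size was first compared over all 24 libraries by edgeR's quasi-likelihood test with sex and 5 surrogate variables in the model, Benjamini-Hochberg adjusted p-values (FDR) taken over all 7 contrasts and a threshold of FDR under 0.4. None of the 10 genes was called, against 0.478% of the 16326 genes tested, and 1 gene, ENPP6, was lower in SGA at an unadjusted p under 0.05, where 4.95% of all tested genes were. Of the 10 log2 fold changes 5 were positive and 5 negative, with a median of 0.00099 against -0.0023 over all tested genes. In a model with litter as a block and no other covariate, 2 of the 10 genes were called lower in SGA, OLIG1 and ENPP6, against 1.52% of all tested genes called lower. Its FDR was taken over fewer contrasts, those it fitted (size, the interaction and size within each diet). In that model 4 genes had an unadjusted p under 0.05 and all 4 were lower in SGA, against 6.28% of all tested genes.

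ENPP6 was lower in SGA piglets than in AGA piglets. On the CON diet it ran from 9.95 to 15.2 CPM in AGA piglets (median 12.9) and from 5.80 to 10.3 CPM in their SGA littermates (median 9.52). On the HF diet it ran from 10.0 to 14.5 CPM in AGA piglets (median 12.8) and from 9.58 to 12.1 CPM in SGA littermates (median 10.9). SGA CON piglets were low and overlapped AGA CON piglets only at the edge, while the HF groups overlapped more. The SGA piglet was lower in 10 of 12 litters, as was the case for 4.86% of the tested genes, by a mean of -0.37 ± 0.35 log2 units (SD). The lowest value of all, in SGA CON replicate 1, differed from its littermate by -1.16 log2 units. With surrogate variables the log2 fold change was -0.36 (SE 0.11, 95% interval -0.59 to -0.14, unadjusted p = 0.00293, FDR = 0.485, not called). With litter as a block it was -0.38 (SE 0.10, 95% interval -0.59 to -0.17, FDR = 0.27). Over 21 alternative fits its FDR ran from 0.174 to 0.972 and it was called in 5, namely with the block, with sex and cohort but no surrogate variables, and without litter 4, 5 or 12, while its fold change was negative in all 21. It was -0.39 in cohort 1 alone and -0.37 in cohort 2 alone. Within the CON diet the blocked fold change was -0.51 (FDR = 0.315, 1 of the 10 genes called lower, against 0.876% of all tested genes) and within the HF diet -0.25 (FDR = 0.685), and the difference between the diets was 0.26 (SE 0.20, FDR = 0.791).

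OLIG1, the helix-loop-helix factor needed for oligodendrocyte maturation, was lower in the SGA piglet in 12 of 12 litters, as was the case for 0.3% of the tested genes. It ran from 608 to 730 CPM in AGA CON piglets (median 717) and from 555 to 677 CPM in SGA CON piglets (median 612). On HF it ran from 558 to 892 CPM in AGA piglets (median 664) and from 458 to 801 CPM in SGA littermates (median 622). The groups overlapped on both diets. The differences within litters ran from -0.45 to -0.01 log2 units, with a mean of -0.17 ± 0.13 (SD), and were -0.17 on average on both diets. With surrogate variables the log2 fold change was -0.10 (SE 0.05, FDR = 0.747, not called). With litter as a block it was -0.17 (SE 0.05, 95% interval -0.27 to -0.07, FDR = 0.325). Over the 21 alternative fits its FDR ran from 0.325 to 0.986, with the block as the one fit in which it was called, and the fold change was negative in all of them. It was -0.23 in cohort 1 alone and -0.13 in cohort 2 alone.

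**Figure D2:**
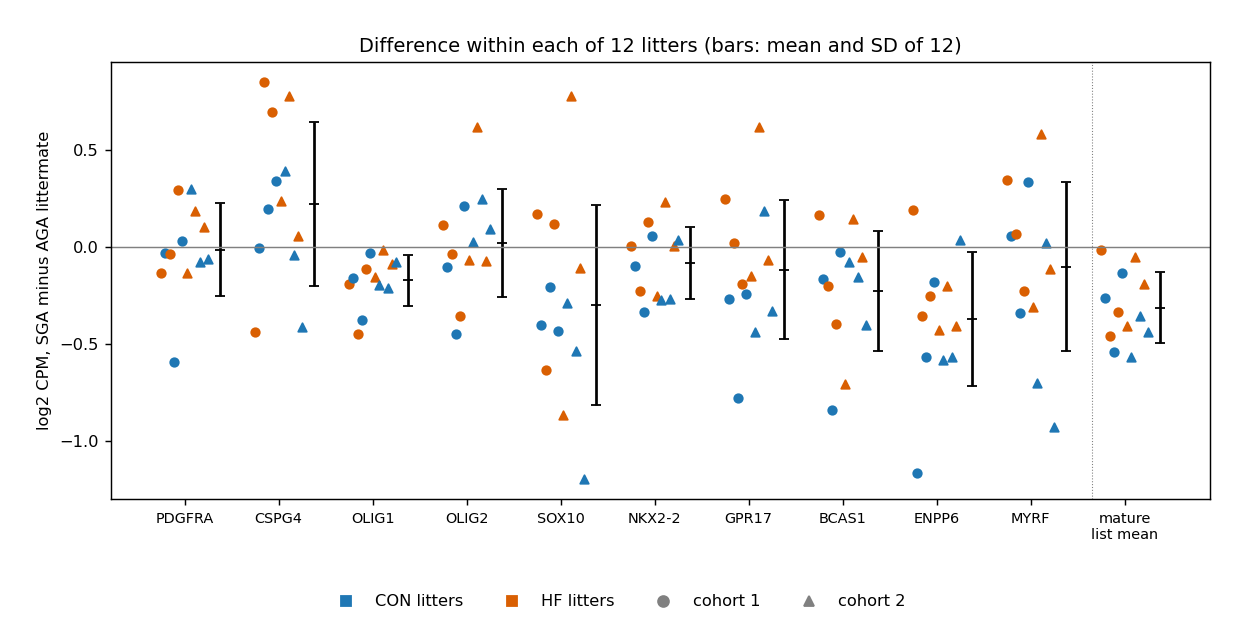
Difference in log2 CPM between the SGA piglet and its AGA littermate for each of the 10 genes and for the mean of the mature oligodendrocyte list, with 1 point per litter, colour for diet, shape for cohort, and bars for the mean and SD of 12 litters. OLIG1 lies below 0 in all 12 litters and the mature list mean does too, while PDGFRA, OLIG2, NKX2-2 and MYRF lie on both sides.

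BCAS1 and SOX10 had negative mean differences within litters but were not called in either model. BCAS1 on CON ran from 722 to 1317 CPM in AGA piglets (median 945) and from 683 to 973 CPM in SGA piglets (median 771). On HF it ran from 565 to 1250 CPM in AGA piglets (median 896) and from 570 to 1015 CPM in SGA piglets (median 802). Its groups overlapped throughout, and the SGA piglet was lower in 10 of 12 litters, by -0.23 ± 0.31 log2 units on average. The blocked fold change was -0.23 (SE 0.08, unadjusted p = 0.0119, FDR = 0.479), while the model with surrogate variables gave -0.02 (SE 0.09, FDR = 0.99). SOX10, the factor that acts throughout the lineage, ran on CON from 5.69 to 10.3 CPM in AGA piglets (median 7.37) and from 3.45 to 7.04 CPM in SGA piglets (median 5.22). On HF the AGA piglets had 5.69 to 14.5 CPM (median 8.04) and the SGA piglets 4.86 to 13.5 CPM (median 8.34). It was lower in the SGA piglet in 6 of 6 CON litters and in 3 of 6 HF litters (at least 9 of 12 litters for 11.7% of the tested genes), and the HF groups overlapped almost entirely. The blocked fold change was -0.31 (SE 0.14, unadjusted p = 0.0394, FDR = 0.589) and the one with surrogate variables -0.13 (SE 0.17, FDR = 0.933). SOX10 had only 21 to 115 counts per library, and its coefficient of variation over 24 libraries, 35.4%, was the widest of the 10.

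Neither of the progenitor surface genes was called for size in either model. PDGFRA on CON ran from 71.8 to 126 CPM in AGA piglets (median 91.9) and from 82.7 to 94.1 CPM in SGA piglets (median 87.4). On HF it ran from 74.8 to 102 CPM in AGA piglets (median 88.0) and from 82.6 to 103 CPM in SGA piglets (median 89.1). Its groups overlapped, the SGA piglet was higher in 5 of 12 litters, and the fold change was 0.03 with surrogate variables (95% interval -0.10 to 0.16) and -0.01 with the block (-0.15 to 0.12). CSPG4 on CON ran from 7.43 to 11.6 CPM in AGA piglets (median 10.4) and from 7.73 to 13.3 CPM in SGA piglets (median 10.3). On HF it ran from 6.09 to 10.16 CPM in AGA piglets (median 8.17) and from 7.09 to 12.9 CPM in SGA piglets (median 11.1). AGA HF piglets had the lowest median, and the SGA piglet was higher in 8 of 12 litters, with 5 of the 6 HF litters among them. The fold change was 0.23 in both models (SE 0.12, FDR = 0.755 and 0.651) and was not called. On HF it was 0.35 with surrogate variables and 0.37 with the block (unadjusted p = 0.0429 and 0.0397, FDR = 0.719 and 0.59), and on CON 0.11 and 0.085, and the difference between the diets was 0.24 (SE 0.22, FDR = 0.893) and 0.28 (SE 0.23, FDR = 0.81). Among the other cell types that carry these genes, the summed pericyte and smooth muscle list on CON was 406 ± 54.7 CPM in AGA and 396 ± 52.0 CPM in SGA piglets, and on HF 419 ± 63.1 and 387 ± 34.9 CPM. The fibroblast and meningeal sum was 323 ± 27.3 and 322 ± 59.9 CPM on CON and 393 ± 90.5 and 334 ± 50.2 CPM on HF in the same order. PTGDS, which is not confined to these cells, made up 52.4% of that sum, and MCAM 45.5% of the pericyte and smooth muscle sum. The part of these cells in the PDGFRA and CSPG4 values was not tested.

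The other 4 regulators were not called for size in either model, and their groups overlapped. OLIG2, which specifies the lineage, ran from 43.99 to 83.6 CPM over all piglets and was higher in SGA in 6 of 12 litters, with fold changes of 0.07 (surrogate variables, 95% interval -0.08 to 0.21) and 0.02 (block, -0.14 to 0.18). NKX2-2, a repressor that times differentiation, was higher in SGA in 6 of 12 litters, with 0.02 (-0.11 to 0.14) and -0.08 (-0.20 to 0.03). GPR17 was higher in SGA in 4 of 12 litters, with -0.04 (-0.19 to 0.11) and -0.12 (-0.28 to 0.05). MYRF was higher in SGA in 6 of 12 litters, and its fold change turned from 0.10 (-0.13 to 0.33) with surrogate variables to -0.10 (-0.31 to 0.11) with the block. For the mean of both diets these intervals leave room for changes of up to 0.33 log2 units for MYRF and less for the other 3. On CON alone the blocked fold change was -0.31 for GPR17 (95% interval -0.54 to -0.08, unadjusted p = 0.0114, FDR = 0.475) and -0.26 for MYRF (-0.56 to 0.04). It was -0.15 for NKX2-2 and 0.01 for OLIG2 there. On HF it was 0.08 for GPR17 and 0.06 for MYRF. With the block on CON, 5 of the 10 genes were lower at an unadjusted p under 0.05, as were 728 of the 16326 tested genes. The direction also differed between models for NKX2-2 and PDGFRA. The surrogate variables took up a median of 48.4% of the variance left after group and sex over all tested genes, and 79.9% for OLIG2, 79.0% for OLIG1 and 66.6% for MYRF, but 15.7% for ENPP6.

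**Figure D3:**
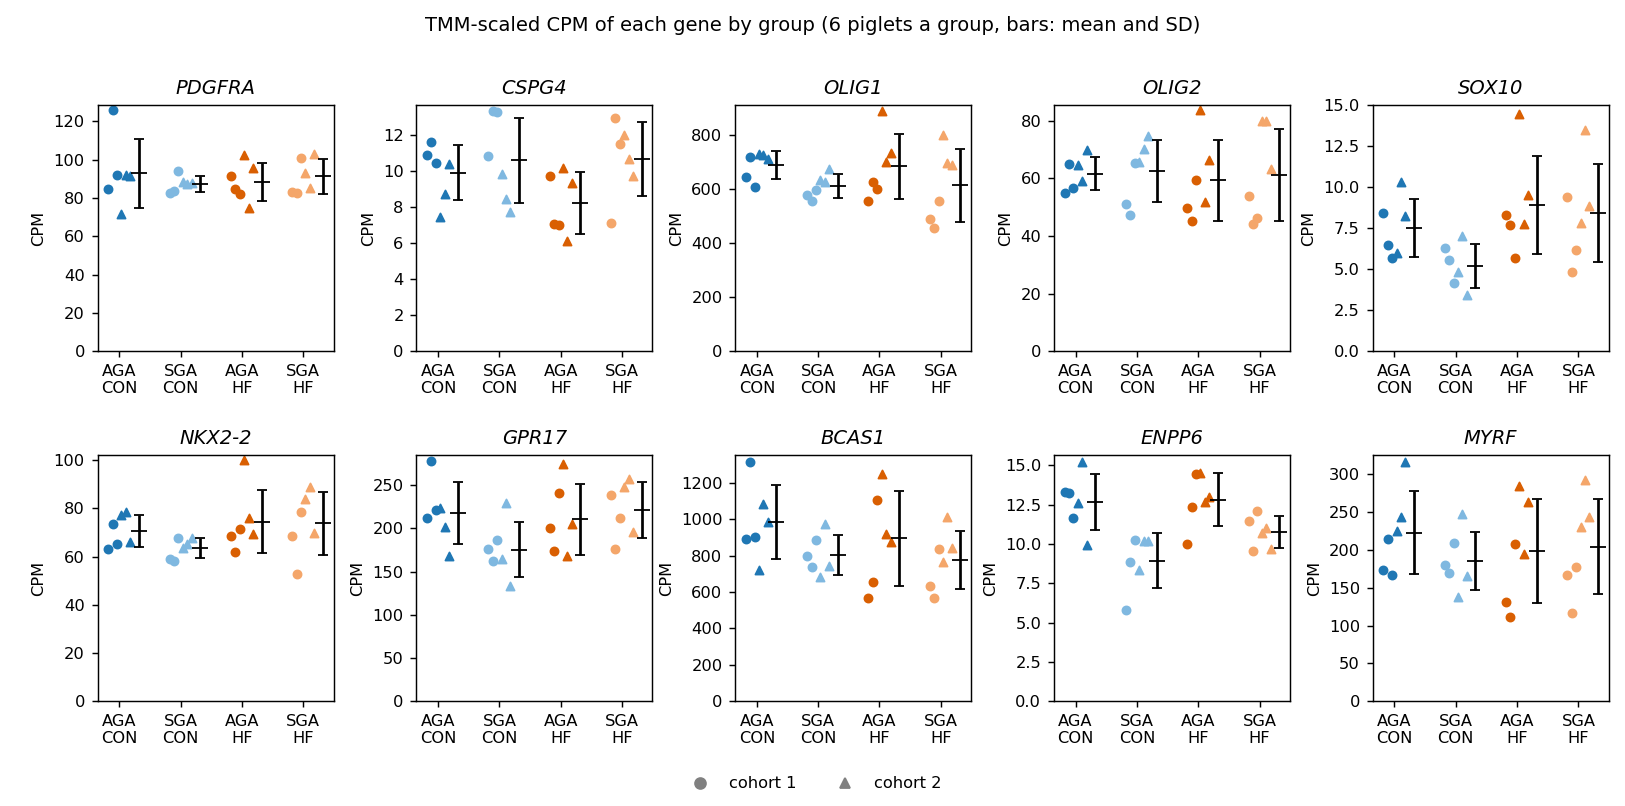
TMM-scaled CPM of each gene in the 4 groups of 6 piglets, with 1 point per library (circles for cohort 1, triangles for cohort 2) and bars for the group mean and SD. ENPP6 medians fall from 12.9 CPM in AGA CON to 9.52 in SGA CON, with overlap at the edge. MYRF medians fall from 219 to 175 CPM between the same groups, with wider overlap. The 4 groups of PDGFRA and of OLIG2 overlap as well.

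Genes of mature oligodendrocytes were set beside the regulators, and whether the lists differ was not tested. Of 21 tested entries for 20 mature oligodendrocyte symbols (TF, the iron carrier transferrin, has 2 Entrez entries), all 21 had a lower fitted level in SGA in both models. With surrogate variables the median log2 fold change was -0.18, 8 were lower at an unadjusted p under 0.05, against 4.95% of all tested genes, and none was called. With litter as a block the median was -0.30, against -0.11 for the 10 regulators and 0.00 for all tested genes. In that model 11 of the 21 were called lower, against 1.52% of all tested genes. CNP, an enzyme of uncompacted myelin, was lower in SGA in all 12 litters (blocked fold change -0.42, SE 0.06, FDR = 0.037). MAL, a myelin proteolipid, fell by 0.43 (FDR = 0.127) and OPALIN, a membrane glycoprotein of oligodendrocytes, by 0.43 (FDR = 0.0997). UGT8, which makes the myelin lipid galactosylceramide, fell by 0.34 (FDR = 0.127), MBP by 0.32 (FDR = 0.182) and MOBP by 0.30 (FDR = 0.213). PLLP, GJB1, CRYAB and the more abundant TF entry were also among the 11, with fold changes from -0.49 to -0.23. MOG, a glycoprotein of the outer myelin surface, had -0.49 (FDR = 0.701) and MAG, an adhesion molecule next to the axon, had -0.22 (FDR = 0.47), and neither was called. The summed level of the mature list on CON was 24837 ± 2968 CPM in AGA and 18830 ± 2435 CPM in SGA piglets, and on HF 24626 ± 5019 and 21078 ± 4355 CPM. For the 10 regulators together the sums were 2370 ± 277 and 2014 ± 186 CPM on CON and 2241 ± 482 and 2074 ± 379 CPM on HF, of which BCAS1 made up 39.8%.

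**Figure D4:**
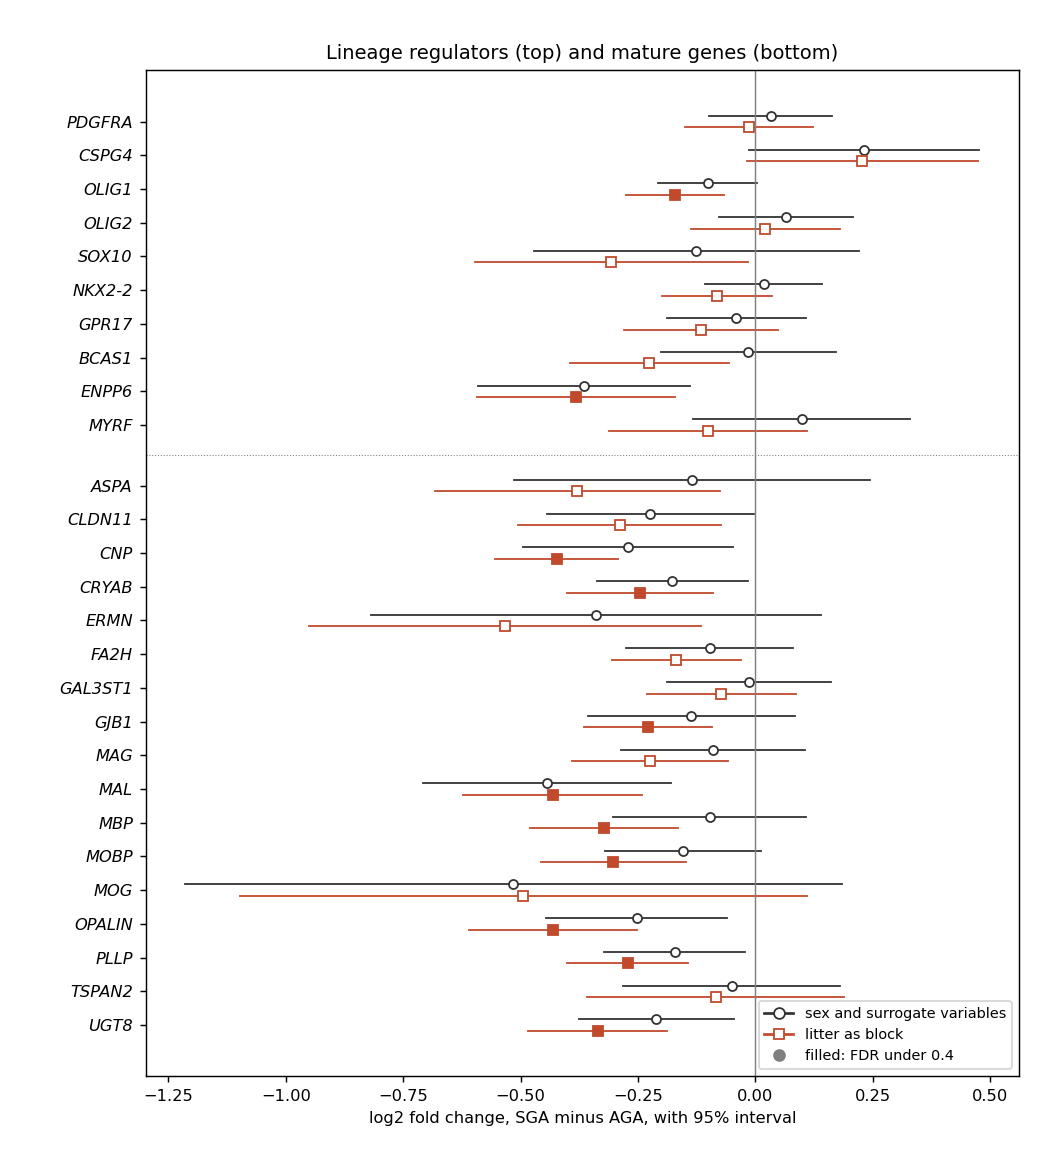
Log2 fold change of SGA against AGA with its 95% interval for the 10 regulators (top) and mature oligodendrocyte genes (bottom, a part of the list, without the TF entries), from the model with surrogate variables (circles) and with litter as a block (squares), filled where the FDR was under 0.4. Every mature gene shown lies left of 0, while among the regulators the filled points are OLIG1 and ENPP6, in the blocked model.

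Within litters, the differences of MYRF, NKX2-2 and BCAS1 went with those of the mature genes by both Pearson's and Spearman's measure. The difference of each gene between littermates was set against the mean difference of the mature list, which was negative in 12 of 12 litters (-0.56 to -0.01 log2 units). For the 10 genes 10 such relations were computed over 12 litters, with permutation p-values (100000 resamples, two-sided) adjusted by Benjamini-Hochberg over the 10. Both sides come from the same libraries and share their depth and scaling. The 12 litters pool both diets, and r within each diet is not given. How many of all tested genes go with the mature list to a like degree is not given either. MYRF had Pearson r = 0.79 (permutation p = 0.00197, adjusted 0.0197) and Spearman rho = 0.78 (permutation p = 0.00455, adjusted 0.0388), with r = 0.66 without the 2 litters farthest from the median of the list, 1 and 9. NKX2-2 had r = 0.74 (permutation p = 0.00797, adjusted 0.0256) and rho = 0.71 (permutation p = 0.0116, adjusted 0.0388), and r = 0.67 without those litters. BCAS1 had r = 0.70 (permutation p = 0.0102, adjusted 0.0256) and rho = 0.73 (permutation p = 0.00971, adjusted 0.0388), but r = 0.52 without them. GPR17 had r = 0.70 (permutation p = 0.0093, adjusted 0.0256) and rho = 0.64 (permutation p = 0.0307, adjusted 0.0768), and r = 0.43 without them, so that its relation rested largely on those litters. Within cohorts 1 and 2, r was 0.84 and 0.86 for MYRF, 0.71 and 0.77 for NKX2-2, 0.87 and 0.53 for BCAS1, and 0.66 and 0.87 for GPR17. OLIG1 (r = 0.58, permutation p = 0.0468, adjusted 0.0779; rho = 0.59, permutation p = 0.0482, adjusted 0.0965), SOX10 (r = 0.58, permutation p = 0.0444, adjusted 0.0779; rho = 0.53, permutation p = 0.0806, adjusted 0.134) and OLIG2 (r = 0.55, permutation p = 0.0612, adjusted 0.0874; rho = 0.40, permutation p = 0.199, adjusted 0.249) did not pass the adjustment. Without litters 1 and 9, r was 0.64 for OLIG1, 0.20 for SOX10 and 0.31 for OLIG2, and within cohorts 1 and 2 it was 0.71 and 0.74 for OLIG1, 0.39 and 0.74 for SOX10, and 0.76 and 0.61 for OLIG2. ENPP6 had r = 0.37 (permutation p = 0.239, adjusted 0.299; rho = 0.50, permutation p = 0.0988, adjusted 0.141), PDGFRA r = 0.23 (permutation p = 0.499, adjusted 0.554; rho = 0.08, permutation p = 0.80, adjusted 0.80) and CSPG4 r = -0.13 (permutation p = 0.685, adjusted 0.685; rho = -0.20, permutation p = 0.529, adjusted 0.588). Whether the relations differ between genes was not tested.

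**Figure D5:**
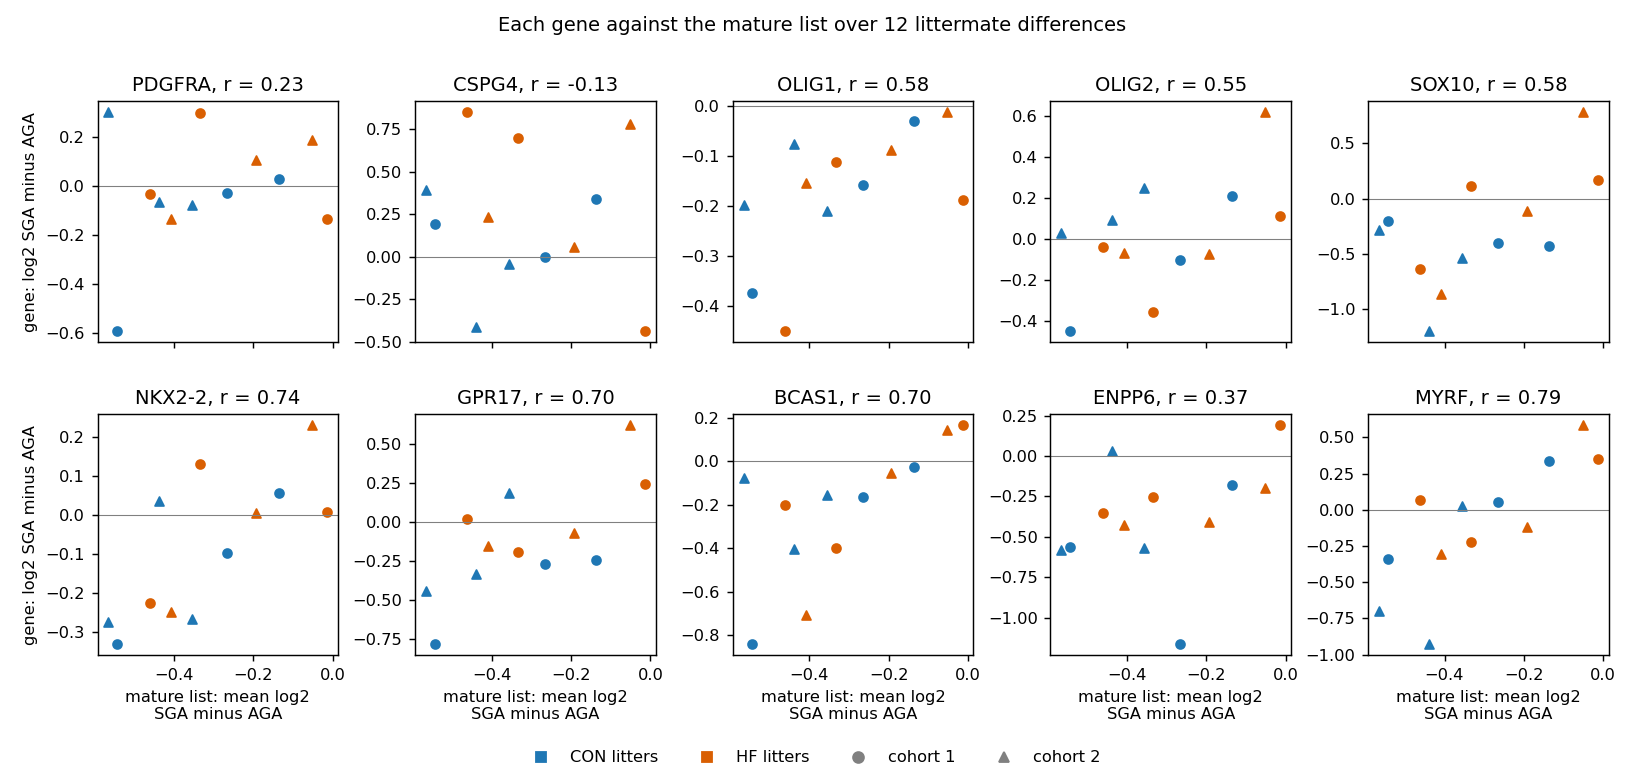
Difference between littermates (log2 CPM, SGA minus AGA) of each gene on the vertical axis against the mean difference of the mature oligodendrocyte list on the horizontal axis, with 1 point per litter, colour for diet and shape for cohort. MYRF (r = 0.79) and NKX2-2 (r = 0.74) rise along the horizontal axis, and CSPG4 (r = -0.13) does not.

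Diet was compared over all 24 libraries in the model with surrogate variables, which has no term for litter although littermates shared a diet. None of the 10 genes was called in it, against 0.159% of all tested genes. SOX10 and BCAS1 had an unadjusted p under 0.05 in it, where 7.09% of all tested genes did. Compared between litters, with the counts of littermates summed, none of the 10 was called either (FDR = 0.999 for each). SOX10 had a fold change of 0.41 for HF against CON (SE 0.17, unadjusted p = 0.0243, FDR = 0.665), and with the counts of littermates summed to 12 litters one of 0.42 (SE 0.15, unadjusted p = 0.0131, FDR = 0.999). The fold change was 0.55 in SGA piglets (SE 0.23, FDR = 0.667) and 0.27 in AGA piglets (SE 0.23, FDR = 0.881), and these differed by 0.28 (SE 0.32, FDR = 0.914). BCAS1 had a fold change of -0.25 (SE 0.09, FDR = 0.609), which was -0.12 (SE 0.13) over summed littermates and turned to 0.14 in cohort 2 alone. The remaining 8 genes had fold changes from -0.18 (MYRF) to 0.14 (ENPP6).

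The effect of size was not shown to differ between diets for any of the 10 genes in either model, against 0.049% of the tested genes called with surrogate variables and 0.276% with the block. With surrogate variables the interaction ran from -0.10 (OLIG2) to 0.28 (SOX10), with 7 of 10 positive. With litter as a block all 10 were positive, with a median of 0.20 against -0.01 for all tested genes. In that model 9 of 10 astrocyte genes (median 0.23) and 18 of 21 mature oligodendrocyte entries (median 0.16) were positive. So were 7 of 9 endothelial genes (median 0.024), 6 of 10 microglial genes (median 0.057) and 17 of 23 receptors of the lineage (median 0.061). Among the microglial genes CSF1R was called (1.74, FDR = 0.341). Fewer were positive among neuronal genes (2 of 9, median -0.093), pericyte and smooth muscle genes (4 of 10, median -0.064) and fibroblast and meningeal genes (3 of 9, median -0.18). Of the 10 genes GPR17 had the smallest p with the block (0.39, SE 0.16, unadjusted p = 0.0223, FDR = 0.531), where 3.73% of the tested genes were under 0.05. GPR17 on CON ran from 168 to 278 CPM in AGA piglets (median 216) and from 133 to 229 CPM in SGA piglets (median 170). On HF it ran from 168 to 275 CPM in AGA piglets (median 203) and from 176 to 257 CPM in SGA piglets (median 225). The SGA piglet was thus lower in 5 of 6 CON litters and higher in 3 of 6 HF litters.

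For MYRF, OLIG1 and OLIG2 the means of the 2 cohorts differed by more than the SD within either, which was not tested further. MYRF was 169 ± 34.4 CPM in cohort 1 and 237 ± 51.6 CPM in cohort 2 (SD, 12 piglets each), OLIG1 was 583 ± 69.0 and 719 ± 71.1 CPM and OLIG2 was 53.2 ± 7.29 and 69.0 ± 9.28 CPM. PDGFRA (90.6 ± 12.6 and 89.4 ± 9.39 CPM), GPR17 (206 ± 34.3 and 206 ± 42.6 CPM) and ENPP6 (11.1 ± 2.36 and 11.5 ± 2.08 CPM) differed by less than their SD. Each group has 3 piglets in each cohort. The mature list summed to 20268 ± 3591 CPM in cohort 1 and 24418 ± 4281 CPM in cohort 2.

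Over the 24 libraries the members were related to unequal degrees. OLIG1 and OLIG2 had r = 0.75, OLIG1 and NKX2-2 0.71, OLIG2 and MYRF 0.73, and MYRF and BCAS1 0.73 (Pearson, log2 CPM), and for MYRF and BCAS1 r was 0.83 and 0.72 within the cohorts. Part of the first relation lay between cohorts, since r of OLIG1 and OLIG2 was 0.57 in cohort 1 and 0.40 in cohort 2. Within cohorts 1 and 2, r was 0.40 and 0.81 for OLIG1 and NKX2-2, and 0.80 and 0.30 for OLIG2 and MYRF. SOX10 had 0.59 with NKX2-2 and 0.56 with GPR17, its highest values, 0.44 with OLIG1 (0.07 and 0.56 within cohorts 1 and 2), 0.26 with OLIG2 (-0.19 and 0.19) and 0.50 with MYRF (-0.27 and 0.79). PDGFRA had r = 0.47 with BCAS1, its highest. CSPG4 had r between -0.36 (ENPP6) and 0.46 (PDGFRA) with the other 9 genes. The libraries share depth and scaling with every gene, so these values are descriptions.

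The genes most like each member were taken among 9386 tested genes with a symbol and a mean of at least 5 CPM. MYRF was most like RAB7B (r = 0.93), SLC6A9 (0.90) and NFASC (0.88), the last a cell adhesion protein of axons and paranodes. OLIG1 was most like TFEB (0.89), a regulator of lysosomal genes, MID1IP1 (0.85) and RTKN (0.84). GPR17 was most like TNS3 (0.87), EPB41L2 (0.78) and AFDN (0.77), and BCAS1 most like TESK2 (0.87), CDKN2C (0.84), a cell cycle inhibitor, and FOXO4 (0.84). OLIG2 was most like TLR9 (0.86), CD14 (0.81) and S1PR5 (0.80), the sphingosine receptor of oligodendrocytes. NKX2-2 was most like CERCAM, DAAM2 and SYNPO2L (0.75 each), ENPP6 most like SSPN (0.76), GAB1 (0.74) and SP1 (0.72), and SOX10 most like PPEF1 (0.76), FAM184B (0.76) and TJAP1 (0.75). PDGFRA was most like MAP3K3 (0.73), MAOA (0.72) and SPAG1 (0.72), and CSPG4 most like GATA2 (0.72), BAHCC1 (0.72) and ECHDC3 (0.71).

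Further genes of the lineage were followed by list. Of 11 tested progenitor-enriched genes none was called with surrogate variables and 1 with the block, XYLT1, which starts glycosaminoglycan chains on proteoglycans. Over all tested genes the blocked model called 1.05% higher and 1.52% lower in SGA. XYLT1 was higher in SGA in 11 of 12 litters, as were 1.01% of the tested genes in at least 11 (blocked fold change 0.23, SE 0.06, FDR = 0.273), opposite to the mature genes, and the list's median was 0.01, with 6 genes positive and 5 negative. PLPP4 had 0.24 (FDR = 0.602) and LUZP2 0.01 (FDR = 0.993). MATN4, a matrix protein named after its values were seen, had the largest blocked fold change of the list by size, -0.36 (SE 0.16, unadjusted p = 0.039, FDR = 0.587), and -0.06 (FDR = 0.977) with surrogate variables. Of 24 further transcription and chromatin regulators 1 was called with the block: NKX6-2, a homeobox factor of myelinating cells, was lower in SGA in 11 of 12 litters, as were 1.56% of the tested genes in at least 11 (-0.44, SE 0.11, FDR = 0.21). ID4, an inhibitor of differentiation, had 0.14 with surrogate variables and 0.03 with the block, and QKI, an RNA-binding protein of myelin transcripts, had -0.19 and -0.16. None of these last values was called.

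Among 18 tested ligands, PDGFC, a ligand of the PDGFRA receptor, was the one called with the block, lower in SGA in 11 of 12 litters (-0.33, SE 0.07, FDR = 0.117; -0.24, FDR = 0.532 with surrogate variables). CNTN1 had -0.12 (FDR = 0.65) and PSAP 0.03 (FDR = 0.914). None of 23 receptors was called in either model. FGFR1, a growth factor receptor of progenitors, was higher in SGA in 10 of 12 litters (0.16, SE 0.06, FDR = 0.498), LINGO1, which restrains differentiation, had 0.21 (FDR = 0.545), and ADGRG1 had -0.14 (FDR = 0.606). None of 12 cell division genes was called in either model, and MKI67 had 0.28 with surrogate variables (FDR = 0.581) and 0.14 with the block (FDR = 0.76), MCM2 0.21 and 0.07, and PCNA -0.12 and -0.21. For diet no gene of these lists was called. The smallest p-values belonged to PSAP (-0.10, FDR = 0.482) and WNT7A (-0.26, FDR = 0.495) among ligands, NOTCH2 (-0.47, FDR = 0.564) and EGFR (-0.63, FDR = 0.575) among receptors, and TYMS (0.46, FDR = 0.629) and RRM2 (0.44, FDR = 0.761) among cell division genes. In the other lists they belonged to XYLT1 (-0.08) and C1QL1 (-0.09), HES1 (-0.11) and SOX9 (-0.13), and, among mature genes, MBP (-0.22, FDR = 0.713) and OPALIN (0.16, FDR = 0.789).

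Markers of other cell types were followed beside these results. Of the astrocyte list, S100B, which oligodendrocytes also express, was called with the block, lower in SGA in 11 of 12 litters (-0.17, FDR = 0.383), and 1 of 10 passed. The summed astrocyte list, 75.1% of it GFAP, was 11895 ± 1592 CPM in AGA and 10396 ± 620 CPM in SGA piglets on CON, and 10802 ± 1967 and 10789 ± 622 CPM on HF. The summed microglial list was 203 ± 61.5 and 183 ± 46.9 CPM on CON and 182 ± 53.3 and 172 ± 35.8 CPM on HF in the same order. On CON the blocked fold change of SGA against AGA was negative for 9 of 10 astrocyte genes (median -0.13), 8 of 10 microglial genes (median -0.17) and 8 of the 10 regulators (median -0.22), and no astrocyte or microglial gene was called in it. Of the neuronal list CAMK2A was called with surrogate variables, higher in SGA (0.13, FDR = 0.308; 0.10, FDR = 0.69 with the block), and the neuronal list median was 0.11 in the blocked model. Of the fibroblast and meningeal list PTGDS, a prostaglandin synthase that oligodendrocytes express too, was called lower in both models (-0.28, FDR = 0.224, and -0.24, FDR = 0.342). MCAM of the pericyte list was called lower with the block (-0.26, FDR = 0.365), and FOXJ1, the ciliogenesis factor of ependyma, was called higher in both (0.52, FDR = 0.224, and 0.40, FDR = 0.375). No microglial or endothelial gene was called for size, and the medians of those lists with the block were -0.08 and 0.03. The summed neuronal list on CON was 10522 ± 1756 CPM in AGA and 11567 ± 697 CPM in SGA piglets, and on HF 9982 ± 1248 and 10885 ± 373 CPM. The part of these shifts in the values of the oligodendrocyte genes was not tested.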

How the data were processed

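Hippocampal RNA of 24 piglets was sequenced from stranded polyA libraries, single-end. The paper gives a low average RNA quality number for these samples, which it puts down to pre-spliced RNA. The authors trimmed reads with Trimmomatic 0.33, aligned them to Sscrofa10.2 with STAR 2.5.2a and deposited whole-number counts per Entrez gene from featureCounts (Subread 1.5.0), strand-aware and without reads mapping to several places. These counts were used as deposited, after removal of 1 entry without an identifier that held 0.613 to 1.62% of counts. Symbols were looked up by identifier in a RefSeq table built on Sscrofa11.1 (23036 of 38882 genes matched, 15993 with a symbol other than a LOC name), and 10 listed symbols without a match were not analysed here. In single libraries 3 counts equal 0.323 to 0.499 CPM, a floor for counting error only.

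The filter kept 16326 genes that reached 1 CPM in 3 or more libraries, and TMM factors were recomputed on them. edgeR 4.0.16 in R 4.3.3 (glmQLFit, glmQLFTest) was fitted to 4 groups, sex and 5 surrogate variables (sva 3.50.0, log2 CPM with a prior count of 2). The study's methods use limma's voom with these terms, which was run as an alternative (limma 3.58.1), as was DESeq2 1.42.0. Benjamini-Hochberg FDR p covered 7 contrasts in the model with surrogate variables. With litter as a block it covered only the contrasts fitted there, namely size, the interaction and size within each diet. The calling threshold was 0.4, a lenient value that the study's methods give for choosing heat map genes. Median SE was 0.105 for size. The common biological coefficient of variation was 0.117. RPKM was computed as CPM per kilobase of counted exon. The litter block replaced sex and surrogate variables for size and interaction. The pairing comes from the labels, which put SGA and AGA piglets of 1 diet and replicate number in 1 litter. Deviations of littermates from their group means correlated with a median r of 0.128 over genes (0.0144 to 0.329), above 0.1 in 9 of 12 litters. Littermates also share cohort and sex, which were not removed, and no pairs from different litters were compared. These values therefore cannot tell a shared litter from a shared cohort or sex. Both fits were also run on simulated counts drawn independently for each library, without litter, cohort or hidden factors. That simulation cannot show which of the 2 models suits these data better.

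The 10 genes and all lists were chosen with earlier results of these data known. Named genes are the 10 members, MBP, MOG and MAG, and of each other list the genes called in a contrast and those with the smallest unadjusted p, 3 for size and 2 for diet (model with surrogate variables). The 3 genes with the highest Pearson r to each member were added. Some genes of the lists are not reported here by name, though they count in the summaries. CPM differences within litters used log2 CPM with the same prior count.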

Additional observations from a re-analysis of the deposited data

Results flagged for a closer look

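NKX2-2 in AGA HF replicate 4 had 99.9 CPM (from 738 counts), the highest of the 6 AGA HF piglets, and lay far from the next of them at 75.9 CPM. The gap was 0.632 of the whole range of the group, just above the 95% limit of Dixon's test for 6 samples. Over the 10 genes and 4 groups 40 sets of 6 piglets were looked at, and chance alone gives about 1 such value in 20 sets.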

How the results depend on the processing

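The members were recomputed under 21 alternative fits, with the FDR recomputed in each. Size kept its direction in all of them for ENPP6, OLIG1, SOX10, GPR17 (lower in SGA) and CSPG4 (higher), and diet for SOX10, ENPP6, GPR17 and NKX2-2 (higher on HF). Each cohort alone has 3 piglets a group, the fits without a litter 5 or 6, and no count of calls at such sizes bears on stability. Depth limits SOX10, CSPG4 and ENPP6 most, the 3 members with the fewest counts. The cause of the changes below was not tested, apart from thresholds and sample numbers that act by construction.

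With litter as a replicate block in place of both sex and surrogate variables, 2 of the 10 genes were called for size instead of 0 and 1 for SGA CON against AGA CON, and this model changed no other call of the 10. Over all genes that model called 420 for size (78 with surrogate variables), 45 for the interaction (8), 205 for size on CON (21) and 145 for size on HF (47). Adding the block, removing sex and the surrogate variables, and taking the FDR over fewer contrasts were not separated. Size fold changes reversed to -0.013 for PDGFRA, -0.082 for NKX2-2 and -0.10 for MYRF, and interactions to 0.0069 for OLIG1, 0.023 for OLIG2 and 0.31 for MYRF. With sex and cohort and no surrogate variables 1 member (ENPP6) was called for size, and the same fold changes reversed, to -0.023, -0.082, -0.10, 0.012, 0.030 and 0.29. That model called 16 genes for diet (26 with surrogate variables), 43 for size on CON, 23 for size on HF and 5 for diet in AGA piglets (11 with surrogate variables).

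The DESeq2 test called 210 genes for size, 88 for diet, 17 for the interaction, 57 for size on CON, 135 for size on HF, 58 for diet in AGA and 31 for diet in SGA piglets (15 with edgeR). In the same order limma's voom called 10 for diet, 1 for the interaction, 10, 24, 3 and 5, and turned the MYRF interaction to 0.0024. DESeq2 size factors gave 16 for the interaction and 18 for diet in AGA piglets, and no filter gave 124 for size and 45 for diet. TMM factors from all listed genes, chosen after seeing the data, gave 143, 48, 20, 42, 97, 29 and 30, and a BCAS1 size fold change of 0.0005. Adjusting each contrast on its own gave 1200 for size (1 member, ENPP6), 6 for diet, 0 for the interaction, 235 for size on HF, 0 for diet in AGA and 8 for diet in SGA piglets. At an FDR of 0.05, 0 genes were called for size, diet, the interaction, size on HF and diet in AGA piglets, and 1 each for size on CON and diet in SGA piglets. At an unadjusted p under 0.05 edgeR had 915 genes higher and 808 lower in SGA, 586 higher and 572 lower on HF, and 342 with a positive and 312 with a negative interaction. Littermates summed gave 1 for diet.

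In cohort 1 alone and in cohort 2 alone 0 genes were called, except 1 each for diet and for diet in SGA piglets. In cohort 1 size fold changes reversed to -0.11 (OLIG2), -0.087 (PDGFRA) and -0.082 (NKX2-2) and interactions to 0.0013 (OLIG2) and 0.030 (MYRF). In cohort 2 they reversed for size to -0.093 (NKX2-2) and -0.24 (MYRF), for diet to 0.13 (OLIG1), 0.067 (OLIG2), 0.097 (PDGFRA), 0.13 (CSPG4), 0.20 (MYRF) and 0.14 (BCAS1), and for the interaction to 0.074 (OLIG1), 0.0265 (OLIG2) and 0.58 (MYRF).

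Leaving out each litter in turn gave 19 (without litter 9) to 1284 (without litter 5) genes for size, 7 to 764 for diet, 2 to 332 for the interaction, 9 to 460 for size on CON, 4 to 1109 for size on HF, 7 to 750 for diet in AGA and 5 to 391 for diet in SGA piglets. For size the count moved over 1.5 times without litters 3 (214), 4 (537), 5, 8 (368), 9, 10 (34) and 12 (417). Members called ran from 0 to 1 for size, 0 to 2 for diet, 0 to 1 for size on CON, 0 to 1 for diet in AGA and 0 to 1 for diet in SGA piglets: ENPP6 was called for size without litter 4, 5 or 12, SOX10 for diet without 4 or 5, BCAS1 without 5 or 8 and MYRF without 8. Size fold changes that changed sign ran from -0.023 to 0.13 (OLIG2), -0.026 to 0.068 (PDGFRA), -0.045 to 0.071 (NKX2-2), -0.041 to 0.19 (MYRF) and -0.12 to 0.024 (BCAS1). Those for diet ran from -0.068 to 0.0094 (OLIG1), -0.043 to 0.095 (PDGFRA) and -0.083 to 0.049 (CSPG4), and for the interaction from -0.11 to 0.029 (OLIG1), -0.18 to 0.064 (OLIG2), -0.003 to 0.16 (PDGFRA), -0.18 to 0.18 (MYRF) and -0.10 to 0.13 (BCAS1).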
